A study of Mus musculus with 27 samples.

Results

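The proteins of the mitochondrial ribosome are encoded by nuclear genes whose mouse symbols begin with Mrpl (named for the large subunit) or Mrps (named for the small subunit). Members were the protein-coding genes with such a symbol followed by a number and at least 10 reads in at least 3 libraries. Of the 51826 rows of counts, 78 qualified, 49 with Mrpl and 29 with Mrps symbols. These groups follow the symbol alone, and the place of each protein in the ribosome was not checked. The pattern matched 83 symbols in all, of which 5 were processed pseudogenes and were left out, and no protein-coding match failed the read rule. All 78 passed the filter on low counts and were among the 19119 genes tested.

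The mitochondrial ribosome translates the few messages of the mitochondrial genome, all of which encode core subunits of the respiratory chain and ATP synthase. Its RNAs come from that genome, while its proteins are made in the cytosol and imported, so assembly needs the output of both genomes. In humans, defects in several of these proteins cause mitochondrial disease, in which heart muscle is often involved.

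RNA was sequenced from the hearts of CD-1 pups taken on postnatal day 14, with 3 whole hearts in each of 9 groups. In the PTU groups the mothers received chow with 0.15% propylthiouracil, which blocks thyroid hormone synthesis, in an iodine-deficient diet, from E13.5 of gestation on. Daily subcutaneous injections from postnatal day 1 gave the pups phenoxybenzamine (PHE, 10 ug/g/day, an alpha-adrenergic blocker), propranolol (PRO, 20 ug/g/day, a beta-adrenergic blocker), both, or saline. The labels divide the hearts into sets: set B held PTU+PRO, PTU, PRO and saline, and set A held PTU+PHE+PRO, PTU+PHE, PHE+PRO, PHE and saline. Libraries held 30791885 to 78913915 assigned reads, and members took 0.315% of them at the lowest, in a PTU heart, and 0.529% at the highest, in a PHE heart. PTU reached the pups through their mothers, and the labels give no litter, so litter cannot be told apart from PTU, nor the diet from the drug. In the count table's header a name is shared by 2 PHE+PRO libraries, which are called 2a and 2b here. Marker genes of heart muscle cells were abundant in all 27 libraries, where 6 of them summed to between 17338 and 29880 counts per megaread (CPM). In whole tissue, fewer cells of a type and less RNA per cell cannot be told apart.

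Promoters of 6 members are shown first because the results turn on these genes: Mrpl37, Mrpl44 and Mrps2 were lower wherever PTU was given, and Mrpl52, Mrpl33 and Mrps18c were among the 4 members that rose most when PTU was combined with PHE (the other one, Mrpl54, has no entry in the promoter table). Each run is the 300 bases around a RefSeq transcription start in GRCm38.p6, with 250 bases before it and 50 after. Capitals mark matches, on either strand, to GCGCANGC (a core of the site of the activator NRF1), CCGGAAG (ETS factors such as GABP) or AAGATGGCG (YY1). Mrpl37 lies at chr4:107066817-107067116 on the minus strand, and Mrpl44 at chr1:79775768-79776067, Mrps2 at chr2:28467816-28468115, Mrpl52 at chr14:54426659-54426958, Mrpl33 at chr5:31613701-31614000 and Mrps18c at chr5:100798509-100798808 all on the plus strand.
Mrpl37: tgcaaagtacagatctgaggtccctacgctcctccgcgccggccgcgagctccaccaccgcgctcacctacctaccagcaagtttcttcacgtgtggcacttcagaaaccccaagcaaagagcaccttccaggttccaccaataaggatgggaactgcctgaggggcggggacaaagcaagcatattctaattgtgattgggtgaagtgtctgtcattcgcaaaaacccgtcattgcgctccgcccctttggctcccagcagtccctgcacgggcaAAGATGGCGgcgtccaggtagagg
Mrpl44: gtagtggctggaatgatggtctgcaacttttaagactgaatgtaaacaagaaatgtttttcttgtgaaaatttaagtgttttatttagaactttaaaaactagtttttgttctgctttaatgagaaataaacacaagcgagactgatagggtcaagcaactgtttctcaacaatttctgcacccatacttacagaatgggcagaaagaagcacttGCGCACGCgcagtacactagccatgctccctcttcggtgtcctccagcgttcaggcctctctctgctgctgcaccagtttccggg
Mrps2: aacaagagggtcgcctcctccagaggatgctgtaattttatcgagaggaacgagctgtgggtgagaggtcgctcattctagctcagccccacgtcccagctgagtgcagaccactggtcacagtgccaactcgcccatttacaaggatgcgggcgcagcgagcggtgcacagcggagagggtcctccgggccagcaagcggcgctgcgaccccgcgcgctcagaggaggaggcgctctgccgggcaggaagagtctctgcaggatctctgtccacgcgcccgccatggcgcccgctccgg
Mrpl52: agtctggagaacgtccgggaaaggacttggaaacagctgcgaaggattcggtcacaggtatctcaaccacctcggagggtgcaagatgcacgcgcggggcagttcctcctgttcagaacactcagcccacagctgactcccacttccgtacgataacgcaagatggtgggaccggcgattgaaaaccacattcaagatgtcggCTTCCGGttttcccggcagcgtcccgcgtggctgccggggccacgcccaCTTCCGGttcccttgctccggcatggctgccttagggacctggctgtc
Mrpl33: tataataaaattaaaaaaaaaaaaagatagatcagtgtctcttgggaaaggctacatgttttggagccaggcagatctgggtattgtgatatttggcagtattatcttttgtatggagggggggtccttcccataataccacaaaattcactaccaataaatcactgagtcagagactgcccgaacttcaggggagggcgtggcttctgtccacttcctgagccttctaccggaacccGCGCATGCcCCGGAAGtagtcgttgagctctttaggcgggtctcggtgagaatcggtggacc
Mrps18c: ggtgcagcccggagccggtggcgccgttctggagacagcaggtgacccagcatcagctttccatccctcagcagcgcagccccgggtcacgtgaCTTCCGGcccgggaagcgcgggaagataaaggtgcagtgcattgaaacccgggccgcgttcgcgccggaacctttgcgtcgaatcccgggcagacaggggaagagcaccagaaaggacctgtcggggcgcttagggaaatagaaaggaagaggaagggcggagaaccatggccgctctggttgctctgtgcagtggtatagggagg

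Mrpl37 held 1 YY1 match inside its transcribed bases, Mrpl44 held 1 NRF1 core and Mrps2 held none of these motifs. Mrpl52 held 2 ETS matches, Mrpl33 held an NRF1 core followed by an ETS match at the start of transcription, and Mrps18c held 1 ETS match. RefSeq promoters were found for 69 of the 78 members. The NRF1 core was in 22 of these 69 members (31.9%), against 11.2% of all 27025 genes with a promoter in the table. The ETS motif was in 26 of 69 (37.7%), against 9.93% of all genes, and the YY1 motif in 8 of 69 (11.6%), against 1.64%. The motif of estrogen-related receptors, TCAAGGTCA, was in 0 of 69, against 0.466% of all genes. The nuclear receptor half-site AGGTCA, which that motif contains, was in 11 of 69 (15.9%), against 18.1% of all genes, and the GC box GGGCGG was in 34 (49.3%), against 38.2%. Of the members lower with PTU in all 4 treatment backgrounds, which are listed below, 12 had a RefSeq promoter. The ETS motif was in 4 of these 12, the NRF1 core in 4 and the YY1 motif in 2. Whether a motif goes with the direction of change was not tested. A match says only that the letters occur in the window.

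Levels of the members were set against each other per length, as reads per kilobase of the longest coding transcript and megaread (FPKM). Mrpl42, a large-subunit protein, had the highest mean, 293 ± 106 FPKM (SD over 27 libraries), followed by Mrpl12, of the ribosome's stalk, at 139 ± 38.3 and Mrpl33 at 113 ± 46.8. Mrps25 had 4.75 ± 1.47 and Mrpl17 had 5.02 ± 1.26 FPKM. The order depends on the length used: per length of all its exons, Mrpl42 had 53.0 FPKM and Mrpl33 7.35. Mrpl53 stood apart with 0.164 ± 0.0688 FPKM, from 1 to 15 reads in a library, and it had the widest spread within groups (log2 SD 0.71). It overlaps Gm42688 on the same strand, which held 30 to 144 reads, and lies antisense to Ccdc142os, with 13 to 52 reads. Of the 78 members, 42 overlap another annotated gene, and whether the counting used strand is not given in the sources used here.

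The comparison of PTU with saline in set B addressed loss of thyroid hormone synthesis without a blocker. Most members were lower in PTU hearts: 41 of 78 fell, 26 with Mrpl and 15 with Mrps symbols, and none rose. The median change was -0.41 on the log2 scale, against 0.01 over all genes tested, and the range ran from -0.78 to 0.35. Over all genes, 14.3% were called higher and 15.1% lower (edgeR quasi-likelihood test, Benjamini-Hochberg adjusted p under 0.05). None rose by DESeq2 or at an unadjusted p under 0.05 either, while a fit of set B alone called 65 lower and 1 higher. In 62 members all 3 PTU hearts were below all 3 saline hearts, a count that was not made over all genes. The summed level of the members was 2754, 3015 and 2885 CPM in PTU hearts, against 4027, 3860 and 3612 CPM in saline hearts. The lowest saline heart lay above the highest PTU heart in these sums, which rest on TMM scaling. The TMM factors were 1.14, 1.12 and 1.16 in PTU hearts, against 0.976, 0.986 and 0.958 in saline hearts. As shares of assigned reads, before scaling, members took 0.315, 0.338 and 0.333% in PTU hearts. Saline hearts had 0.393, 0.381 and 0.346%. No fit without such scaling was run. The count of falls was 20 to 26 without PTU heart 1, PTU heart 3 or saline heart 1, and 33 to 43 without any other single heart of the pair.

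**Figure D1:**
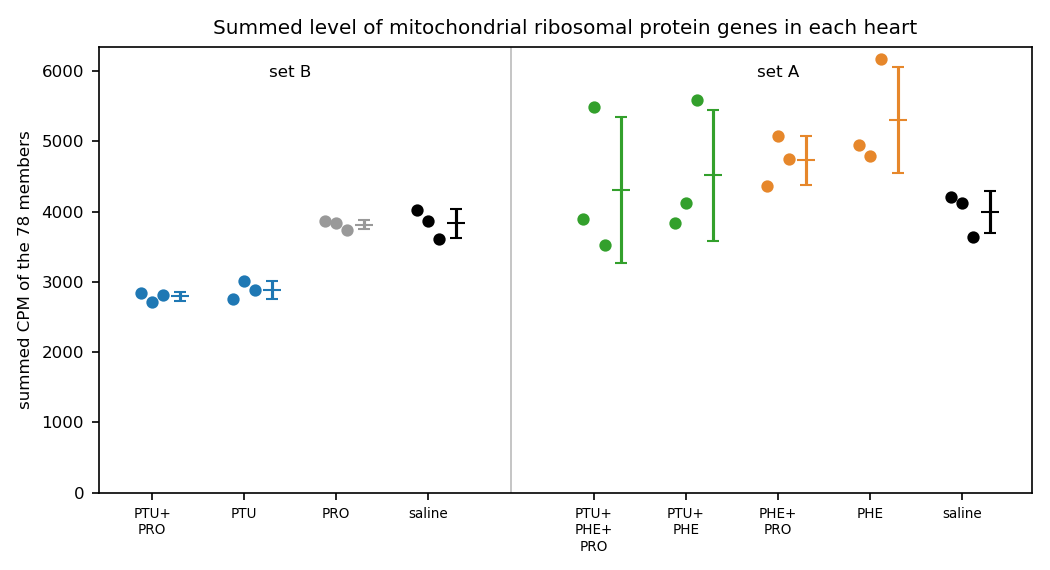
Summed CPM of the 78 members in each heart (points), with the mean ± SD of 3 hearts beside them, for set B on the left and set A on the right. In set B all 6 hearts given PTU lie between 2714 and 3015 CPM and all 6 without it lie above 3600 CPM, while in set A single hearts of the PTU+PHE+PRO, PTU+PHE and PHE groups reach 5486 to 6169 CPM.

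The smallest p-values in PTU hearts were those of large-subunit genes. Mrpl50 had 34.2, 35.1 and 32.9 CPM in PTU hearts, against 48.2, 42.9 and 48.3 CPM in saline hearts, and fell by 0.45 ± 0.08 (log2, SE, n = 3 each, adjusted p = 8.49e-05 by edgeR). Mrpl37 had 64.8, 69.6 and 70.1 CPM in PTU hearts, against 96.9, 96.7 and 93.0 CPM in saline hearts, and fell by 0.49 ± 0.08 (adjusted p = 9.72e-05). Mrpl1 had 19.1, 22.4 and 20.2 CPM in PTU hearts, against 30.3, 30.1 and 30.7 CPM in saline hearts, and fell by 0.56 ± 0.11 (adjusted p = 0.000223). None of these 3 genes had a PTU heart within the saline range. The steepest fall was that of Mrpl42, by 0.78 ± 0.17, to 97.9, 112 and 102 CPM in PTU hearts, against 191, 178 and 167 CPM in saline hearts. Mrps34 fell by 0.75 ± 0.22 and Mrps25 by 0.73 ± 0.15.

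Genes with a known role in the ribosome or in disease had negative estimates as well, though not all were called. Mrpl12, whose protein is also known to bind the mitochondrial RNA polymerase, fell by 0.53 ± 0.17, to 120, 134 and 122 CPM in PTU hearts, against 197, 179 and 166 CPM in saline hearts. Mrps12, of the decoding centre, fell by 0.49 ± 0.18. Among genes mutated in human mitochondrial disease, Mrpl44 fell by 0.48 ± 0.09, Mrps14 by 0.64 ± 0.12, Mrps16 by 0.57 ± 0.18 and Mrps22 by 0.32 ± 0.10. Without PTU heart 1 the falls of Mrpl12, Mrps12, Mrps16, Mrps22 and Mrps34 were not called, nor were those of Mrpl12, Mrps12 and Mrps34 without PTU heart 3, or of Mrpl12, Mrps12 and Mrps16 without saline heart 1. None of these 5 was called without the low-count filter. Mrps12 was the least stable of them, with its call lost in 7 of 12 alternatives (adjusted p up to 0.112 by edgeR). Mrpl3 was not called (-0.49 ± 0.22, adjusted p = 0.0949). Its hearts differed within groups, with 69.7, 63.0 and 73.3 CPM in PTU hearts, against 92.1, 115 and 82.5 CPM in saline hearts. Mrpl58, a peptidyl-tRNA hydrolase built into the large subunit, was not called either (-0.20 ± 0.17, adjusted p = 0.422).

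A few members were at or near the saline level after PTU. Mrpl33 differed by -0.04 ± 0.20, Mrpl54 by -0.01 ± 0.22 and Mrps10 by -0.01 ± 0.16, each with overlapping groups. Mrpl52 had 34.6, 37.1 and 38.2 CPM in PTU hearts, against 33, 31.7 and 28.2 CPM in saline hearts, a difference of 0.24 ± 0.20 that was not called (adjusted p = 0.403). Of the 3 paralogs of bacterial protein S18, which occupy different places in the ribosome, Mrps18a (-0.22 ± 0.15), Mrps18b (-0.07 ± 0.11) and Mrps18c (-0.45 ± 0.20) were not called.

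**Figure D2:**
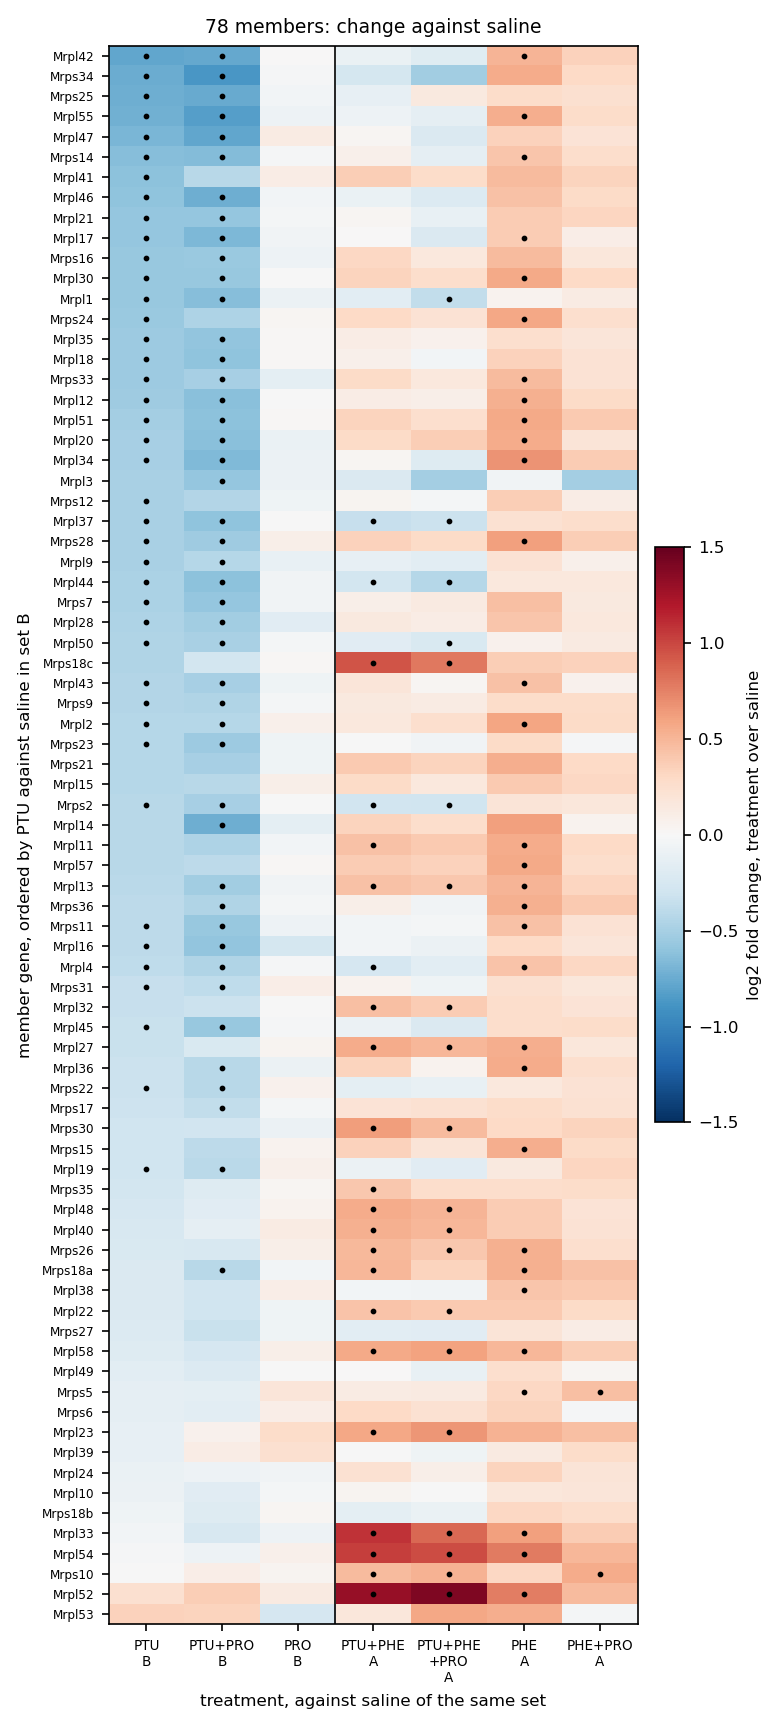
Log2 fold change of each of the 78 members (rows, ordered by PTU against saline) in each treatment against saline of its own set (columns, set B left of the line and set A right of it), with a black dot where the adjusted p is under 0.05. The columns of PTU and PTU+PRO are blue in nearly every row, PRO is pale throughout, PHE and PHE+PRO are mostly red, and the columns of PTU with PHE hold both colours with the strongest red at Mrpl52.

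Propranolol alone gave differences of -0.26 to 0.28 on the log2 scale. In PRO hearts 0 of 78 members were called in either direction by edgeR or DESeq2, with 1 at an unadjusted p under 0.05 (Mrpl16), and the median change was -0.02. Over all genes 0.167% were called higher and 0.105% lower in that comparison. In PTU+PRO hearts 45 of 78 fell against saline and none rose, by DESeq2 or at an unadjusted p under 0.05 either, with a median of -0.45, against 17.7% of all genes higher and 18.1% lower; a fit of set B alone called 69 lower and 1 higher. Mrpl37 had 65.9, 62.8 and 60.5 CPM in PTU+PRO hearts and fell by 0.60 ± 0.08 against saline (adjusted p = 5.12e-06). Mrpl44 fell by 0.62 ± 0.09 and Mrpl50 by 0.48 ± 0.08 in the same comparison. The addition of PRO to PTU gave 0 called members in PTU+PRO hearts against PTU hearts, by edgeR, by DESeq2 and at an unadjusted p under 0.05, where 0.288% of all genes were higher and 0.356% lower. The median difference of members was -0.05 and single members ranged from -0.31 to 0.23.

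Phenoxybenzamine was followed by higher values of these genes. In PHE hearts 31 of 78 members rose against saline of set A, 21 with Mrpl and 10 with Mrps symbols, and none fell. Over all genes, 8.14% were higher and 6.64% lower. No member fell by DESeq2 or at an unadjusted p under 0.05. The median change was 0.40, against 0.01 over all genes. In 65 members all 3 PHE hearts were above all 3 saline hearts, a count that was not made over all genes. Mrpl4 had 144, 137 and 154 CPM in PHE hearts, against 113, 111 and 98.4 CPM in saline hearts, and rose by 0.43 ± 0.10 (adjusted p = 0.0129 by edgeR). Mrpl2, next to the peptidyl transferase centre, had 106, 97.3 and 127 CPM in PHE hearts, against 73.8, 77.0 and 67.4 CPM in saline hearts, and rose by 0.60 ± 0.15 (adjusted p = 0.0139). Mrps28 rose by 0.62 ± 0.16. In each of these genes PHE heart 3 was the highest of the 6, and saline heart 3 the lowest. With either of those libraries left out no member was called, and 6 to 20 were called without any other single heart of the comparison. A fit of set A alone also called 0. The rises of Mrpl52 (0.77 ± 0.20) and Mrpl54 (0.78 ± 0.22) were the steepest.

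These values moved with transcript length. Members have short transcripts, with a median of 1302 bases against 2707 for all genes tested, and 25 of the 78 are under 1 kb. The difference between the medians of transcripts over 8 kb and under 1 kb, on the log2 scale about each gene's mean, was -0.49 to -0.20 in PHE hearts, against 0.07 to 0.30 in saline hearts of set A. Among members, the change in PHE hearts against saline had a median of 0.55 for the 25 under 1 kb, 0.34 for the 28 from 1 to 2 kb and 0.29 for the 25 longer ones. The Spearman correlation of this change with length was -0.59 among members (n = 78 genes of the same 6 libraries). Over all genes tested with a length it was -0.37. With an offset for transcript length in each library, 12 members were called higher. Of the cytosolic ribosomal protein genes 59 of 76 rose in the same comparison (median 0.76). Among translation factors 2 of 14 rose (median 0.10), and among protein genes of the mitochondrial genome 1 of 13 (median 0.22). The transcript lengths of these lists were not compared, so their difference was not tested for length. Summed markers of granulocytes (6 genes, none at 0) were 17.9 to 36.4 CPM in PHE hearts, against 2.85 to 6.73 CPM in saline hearts, and their part in the members' values was not tested.

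In set B the same measures were flat. The length difference was 0.24 to 0.29 in PTU hearts, against 0.13 to 0.38 in saline hearts, and the median change of members in PTU hearts was -0.41, -0.42 and -0.41 for the 3 length classes in the same order. With the length offset 42 members were lower in PTU hearts.

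**Figure D3:**
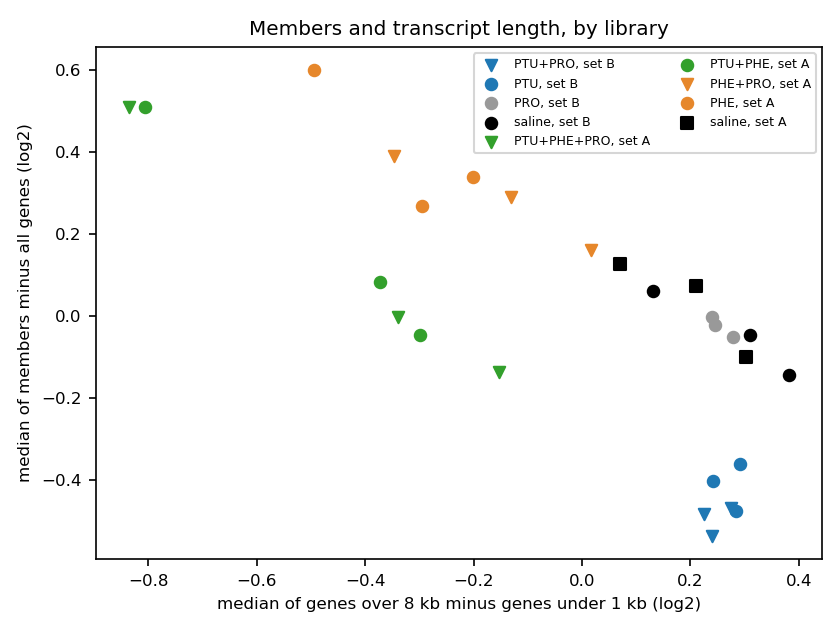
Median log2 level of the members minus that of all genes (vertical axis) against the median of genes over 8 kb minus that of genes under 1 kb (horizontal axis), each about the gene's mean over all libraries, with 1 point per heart. PHE, PHE+PRO, PRO and saline hearts form an upper band that rises to the left, and at a given horizontal position hearts with PTU lie lower, most clearly the 6 of set B at the lower right; PTU+PHE+PRO heart 2 and PTU+PHE heart 3 are the 2 points farthest left.

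Both blockers together gave fewer calls than PHE alone, among members and over all genes alike. The members' share called higher was near that of all genes, and PHE+PRO hearts were not tested against PHE hearts. In PHE+PRO hearts 2 of 78 members rose against saline and none fell, where 2.51% of all genes were higher and 3.09% lower, and DESeq2 called 5 higher. They were the small-subunit genes Mrps5 (0.45 ± 0.10, adjusted p = 0.0083 by edgeR) and Mrps10 (0.55 ± 0.16, adjusted p = 0.0387). None fell by DESeq2, and 1 was lower at an unadjusted p under 0.05 (Mrpl3, -0.51 ± 0.22). The median was 0.26, and 74 of 78 members were above 0. Mrps10 had 22.3, 35.8 and 35.0 CPM in PHE+PRO hearts, against 22.8, 19.8 and 20.7 CPM in saline hearts, so 1 of its PHE+PRO hearts lay within the saline range. Without saline heart 3, or without PHE+PRO heart 2a, no member was called, and without saline heart 1, saline heart 2 or PHE+PRO heart 2b only 1 was.

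PTU with PHE was followed by changes in both directions. In PTU+PHE hearts 18 members rose and 4 fell against saline, where 28.2% of all genes were higher and 25.2% lower. In PTU+PHE+PRO hearts 15 rose and 5 fell, where 28.7% were higher and 26% lower, and the medians were 0.15 and 0.12. In both comparisons the members' shares called higher and lower lay below those of all genes, and 56 and 58 of the 78 were not called. Mrpl52, a protein of the large subunit without a bacterial counterpart, had 58.1, 58.3 and 89.2 CPM in PTU+PHE hearts, against 29.1, 29.2 and 24.5 CPM in saline hearts, and rose by 1.31 ± 0.20 (adjusted p = 1.35e-05 by edgeR). In PTU+PHE+PRO hearts it had 60.5, 107 and 50.5 CPM and rose by 1.40 ± 0.20 against the same saline hearts (adjusted p = 5.16e-06). Mrpl33 rose by 1.08 ± 0.20 in PTU+PHE hearts and by 0.86 ± 0.20 in PTU+PHE+PRO hearts, Mrpl54 by 1.03 ± 0.22 and 0.98 ± 0.22, and Mrps18c by 0.94 ± 0.20 and 0.79 ± 0.20. These 4 genes rose in both comparisons in every alternative run and with each library left out. Mrpl23, Mrpl27, Mrpl58 and Mrps10 also rose in both, with values between 0.48 and 0.66, but these calls turned on single hearts. Without PTU+PHE heart 3 none of the 4 was called in PTU+PHE hearts (0.33 to 0.42), and without PTU+PHE+PRO heart 2 none was called in PTU+PHE+PRO hearts (0.19 to 0.40). Without saline heart 3 the calls of Mrpl23, Mrpl58 and Mrps10 in PTU+PHE hearts and of Mrpl27 in PTU+PHE+PRO hearts were also lost. Mrps10 was not called in PTU+PHE hearts without saline heart 2 or PTU+PHE heart 2, nor in either comparison with the length offset, which also ended the call of Mrpl23 in PTU+PHE hearts.

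The members that fell in PTU+PHE hearts were Mrpl37 (-0.34 ± 0.08, adjusted p = 0.00166 by edgeR), Mrps2, Mrpl44 and Mrpl4. Mrps2, a core protein of the small subunit, had 33.9, 30.8 and 38.2 CPM in PTU+PHE hearts, against 43.8, 43.0 and 39.3 CPM in saline hearts. In PTU+PHE+PRO hearts Mrpl44, which resembles ribonuclease III, had 41.9, 44.2 and 35.2 CPM, against 55.3, 54.4 and 53.8 CPM in saline hearts, and fell by 0.43 ± 0.09 (adjusted p = 0.000516). Mrpl37, Mrps2, Mrpl1 and Mrpl50 fell with it. The balance of rises and falls turned on single hearts. Without PTU+PHE heart 3, 5 members rose and 11 fell in PTU+PHE hearts, and 2 fell without PTU+PHE heart 1 and 1 without heart 2. Without PTU+PHE+PRO heart 2, 4 rose and 17 fell in PTU+PHE+PRO hearts, and without PTU+PHE+PRO heart 3, 24 rose. Without saline heart 3, 8 rose in either comparison, and 8 fell in PTU+PHE+PRO hearts. PTU+PHE heart 3, PTU+PHE+PRO heart 2 and PHE heart 3 had the lowest length differences of all libraries (-0.81, -0.83 and -0.49). Without all 3, 14 members rose and 17 fell in PTU+PHE hearts and 7 rose and 22 fell in PTU+PHE+PRO hearts, with medians of -0.04 and -0.12. With the length offset 16 rose and 13 fell in PTU+PHE hearts, and 14 rose and 21 fell in PTU+PHE+PRO hearts. The addition of PRO to PTU+PHE gave 0 called members by edgeR and DESeq2 and 0 at an unadjusted p under 0.05, where 1.51% of all genes were higher and 1.36% lower; without PTU+PHE+PRO heart 2, 6 were lower.

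**Figure D4:**
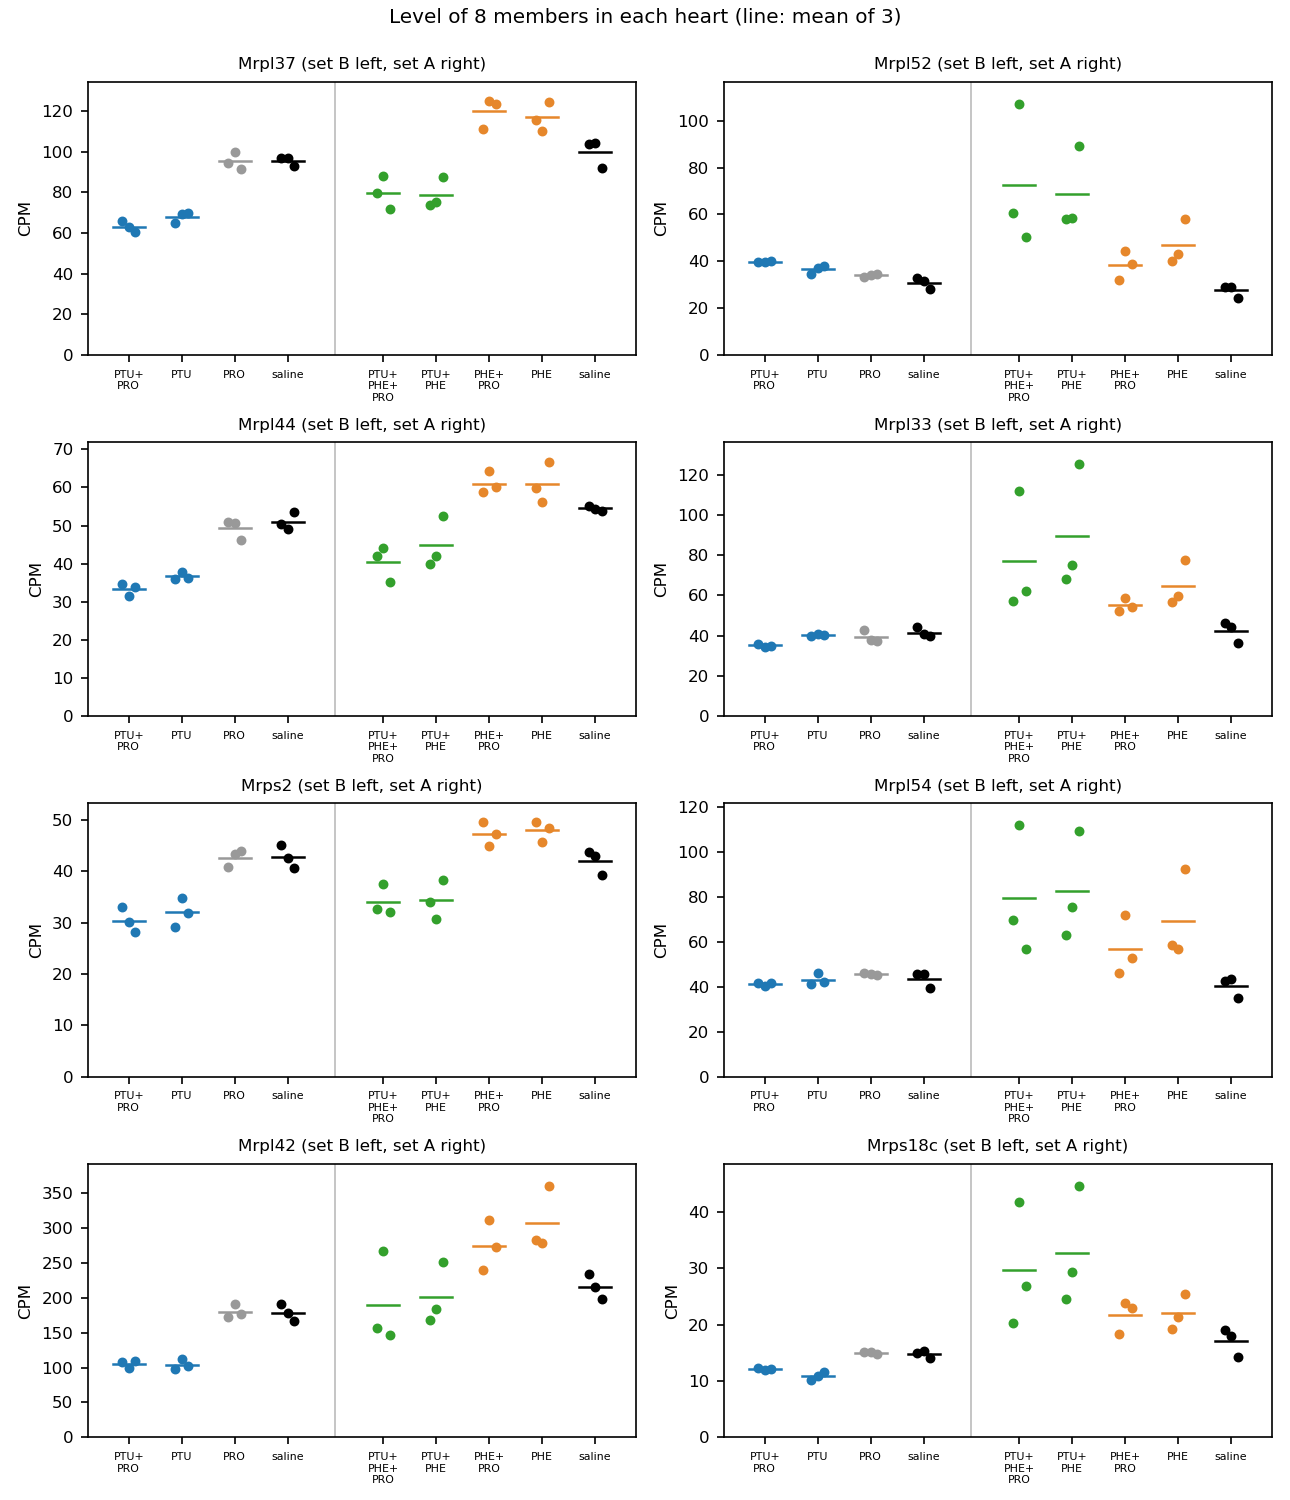
CPM of 8 members in each heart (points) with the group mean of 3 hearts (line), set B left of the grey line and set A right of it. Mrpl37, Mrpl44, Mrps2 and Mrpl42 (left column) are lower in PTU groups than in the groups without PTU of the same set, apart from single PTU+PHE and PTU+PHE+PRO hearts of Mrpl42, while Mrpl52, Mrpl33, Mrpl54 and Mrps18c (right column) have their highest group means in the PTU+PHE and PTU+PHE+PRO groups, while single hearts of these groups overlap those of PHE, above all PHE heart 3.

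The effect of PTU can be read within each adrenergic background, in 4 comparisons that have no library in common. Against PHE hearts, PTU+PHE hearts had 23 members lower and 2 higher, where 18.2% of all genes were higher and 18.6% lower. Against PHE+PRO hearts, PTU+PHE+PRO hearts had 22 lower and 1 higher, where 24.7% were higher and 22.3% lower. Against PRO hearts, PTU+PRO hearts had 42 lower and none higher, nor any higher by DESeq2 or at an unadjusted p under 0.05, where 15% were higher and 15.2% lower; a fit of set B alone called 71 lower and 1 higher. The medians were -0.23, -0.10 and -0.43. As shares of assigned reads, before scaling, members took 0.409, 0.427 and 0.527% in PTU+PHE hearts, against 0.427, 0.426 and 0.529% in PHE hearts. They took 0.417, 0.526 and 0.391% in PTU+PHE+PRO hearts, against 0.401, 0.457 and 0.426% in PHE+PRO hearts. TMM factors were 0.944 to 1.07 in PTU+PHE hearts and 0.858 to 0.889 in PHE hearts. In set A the counts of members called lower (23 and 22 of 78) exceeded the shares of all genes by less than in set B, a difference that was not tested. Without the 3 libraries of lowest length difference 37 and 53 were lower. With the length offset 34 and 31 were lower. In PTU+PHE hearts 11, 12 and 14 were lower without PHE heart 3, PTU+PHE heart 1 and PTU+PHE heart 2, and 40 without PTU+PHE heart 3. In PTU+PHE+PRO hearts 12 were lower and 5 higher without PTU+PHE+PRO heart 3, 41 were lower without heart 2, and 5 were higher without heart 1.

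Lower in all 4 of these comparisons, PTU against saline included, were 14 members, against 7.83% of all genes, and none was higher in all 4. They were Mrps34, Mrpl42, Mrpl46, Mrpl4, Mrpl34, Mrps14, Mrpl17, Mrpl37, Mrpl44, Mrpl21, Mrpl45, Mrps2, Mrps22 and Mrpl50, of which those outside the rule for named genes are listed to complete the count. The count was 28, with 13 of the 14, without the 3 libraries of lowest length difference, 18, with 12 of the 14, with the length offset, and 10, with 9 of the 14, both without the low-count filter and in fits of 1 set. In 53 of 78 members all 4 estimates were below 0, against 4889 of 19119 genes, and in 1 member, Mrpl52, all 4 were above 0. Mrpl37 fell by 0.49, 0.59, 0.57 and 0.59 with PTU in the saline, PRO, PHE and PHE+PRO backgrounds, with an SE of 0.08 in each. In PTU+PHE hearts Mrpl37 had 73.8, 75.3 and 87.6 CPM, against 115, 110 and 125 CPM in PHE hearts, and no groups overlapped. Mrpl47 fell furthest, by 0.91 ± 0.14 in PTU+PRO hearts against PRO hearts, but was not called in PTU+PHE hearts against PHE hearts (-0.32 ± 0.14, adjusted p = 0.0700 by edgeR). Mrpl4 fell by 0.68 ± 0.11 and Mrps18b, not called in set B, by 0.46 ± 0.11 in PTU+PHE hearts against PHE hearts.

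Across the 78 members, the changes with PTU in the saline and PRO backgrounds of set B had a Pearson correlation of 0.91, and those in the PHE and PHE+PRO backgrounds of set A one of 0.79. Between the sets the values were 0.51 to 0.63. Genes are not independent replicates, and the backgrounds of 1 set carry the same set label.

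**Figure D5:**
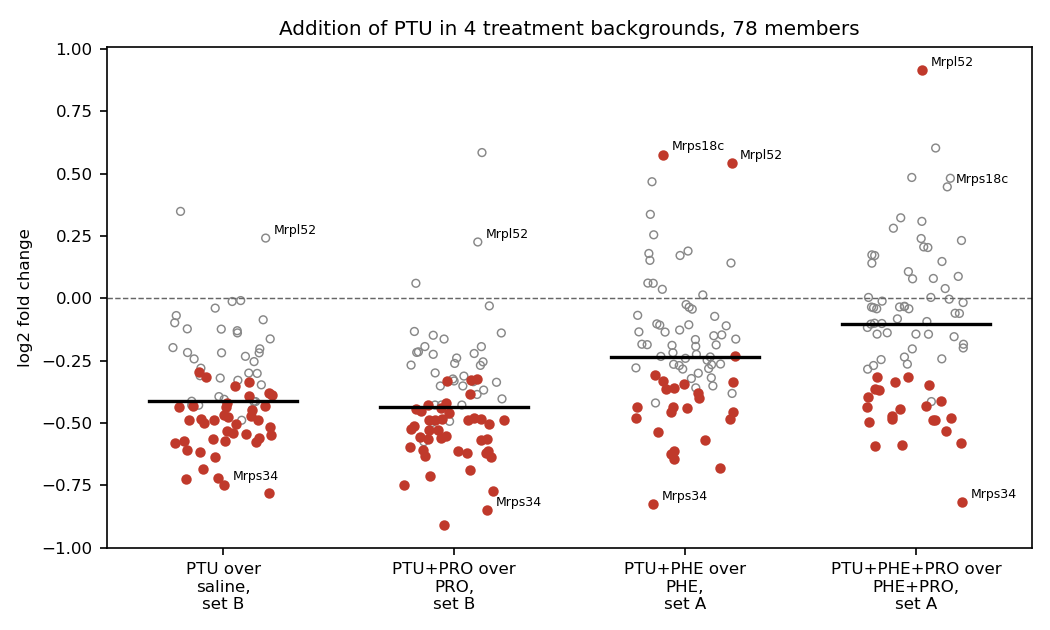
Log2 fold change of the 78 members on addition of PTU in 4 treatment backgrounds, with filled points for an adjusted p under 0.05, open points for the others and a line at the median. In set B nearly all points lie below 0, and in set A a tail of points above 0 is led by Mrpl52 and Mrps18c while Mrps34 stays near -0.82.

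The members with the steepest rises against saline in set A had positive estimates with PTU there. Mrpl52 was 0.54 ± 0.20 higher in PTU+PHE hearts than in PHE hearts (adjusted p = 0.037 by edgeR) and 0.92 ± 0.20 higher in PTU+PHE+PRO hearts than in PHE+PRO hearts (adjusted p = 0.000715). Mrps18c had 24.5, 29.3 and 44.5 CPM in PTU+PHE hearts, against 19.2, 21.3 and 25.4 CPM in PHE hearts, and was 0.58 ± 0.20 higher (adjusted p = 0.0254), with 1 PTU+PHE heart inside the PHE range. Without PTU+PHE heart 3, PHE heart 1 or PHE heart 2 neither gene was called against PHE hearts. Mrpl33 (0.47 ± 0.20) and Mrpl54 (0.26 ± 0.22) were not called in PTU+PHE hearts against PHE hearts. The effect of PTU on Mrps18c in the PHE background of set A exceeded that in the saline background of set B by 1.02 ± 0.28 (adjusted p = 0.0423 by edgeR), the only called member, where 1.4% of all genes were higher and 2.69% lower; DESeq2 called 2 higher, and none was lower by either tool, with 1 lower at an unadjusted p under 0.05. That difference compares 2 sets, so set and PHE cannot be told apart in it. It was not called without PTU+PHE heart 3, nor in 9 of the other leave-one-out fits.

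Saline hearts of the 2 sets were set against each other as a check on comparisons across sets. In saline hearts of set A against those of set B, 3 members were higher and 1 lower, where 1.45% of all genes were higher and 2.8% lower. Mrps33 had 20.5, 19.0 and 18 CPM in set A, against 10.1, 8.87 and 8.36 CPM in set B (1.07 ± 0.16, adjusted p = 9.99e-05 by edgeR). Mrps34, which overlaps Mapk8ip3 on the other strand and Nme3 on its own, had 17.6, 18.6 and 18.3 CPM in set A, against 49.0, 44.4 and 39.9 CPM in set B (-1.29 ± 0.23, adjusted p = 0.000642). Mrpl23 (0.86 ± 0.20) and Mrpl27 (0.55 ± 0.15) were higher in set A. Saline libraries of the same number in the 2 sets deviated together from their group means. The correlations over genes were 0.50, 0.50 and 0.59, against -0.35 to -0.14 for different numbers. Mrpl3 shows it: 91.5, 114 and 82.1 CPM in set A, against 92.1, 115 and 82.5 CPM in set B. Whether these libraries come from different animals is not known. The test took them as separate hearts without pairing, so its p-values do not allow for shared animals. Other genes differed widely between the saline groups. Markers of adipocytes (5 genes) summed to 1.61 to 3.89 CPM in set A, against 0.0359 to 0.0760 CPM in set B, where 3 of the 5 had no read in any saline heart, and all 4 of them that were tested were called higher in set A. Of the 76 cytosolic ribosomal protein genes 12 were higher in set A (median 0.48). The part of these shifts in the members' values was not tested.

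Genes that work with the mitochondrial ribosome were lower with PTU in part. In PTU hearts against saline, where 15.1% of all genes were lower, 3 of 5 ribosome proteins with other symbols fell: Ptcd3 by 0.79 ± 0.10, Chchd1 by 0.69 ± 0.20 and Aurkaip1 by 0.46 ± 0.14. Of 14 translation factors and messenger-binding proteins, 8 fell and none rose (median -0.30). They included Tufm, the elongation factor Tu (-0.67 ± 0.09), Mtif2, an initiation factor (-0.55 ± 0.07), Gfm1, an elongation factor G (-0.54 ± 0.09), and Lrpprc, which stabilises mitochondrial messages (-0.64 ± 0.10). Tufm fell also in PTU+PHE hearts against PHE hearts, by 0.96 ± 0.09, and in PTU+PHE+PRO hearts against PHE+PRO hearts, by 1.00 ± 0.09. Of 20 aminoacyl-tRNA synthetase genes 6 fell and 1 rose in PTU hearts (median -0.18), of 22 ribosome assembly genes 5 fell (-0.16), a share near that of all genes, and of 10 genes of mitochondrial DNA upkeep and transcription 5 fell (-0.31). Of the mitochondrial genome's own 13 protein genes all fell, with a median of -0.68. The 76 cytosolic ribosomal protein genes had a median of 0.07, and of 11 nuclear regulators of mitochondrial biogenesis 2 rose and 1 fell (median 0.05). The mitochondrial genome's protein genes fell in 7 of 13 in PTU+PHE hearts against PHE hearts (median -0.39), where 18.6% of all genes were lower, and in 7 of 13 in PTU+PHE+PRO hearts against PHE+PRO hearts (median -0.43), where 22.3% were lower. Of the cytosolic ribosomal protein genes 8 of 76 rose in PTU+PHE hearts against PHE hearts (median 0.39), where 18.2% of all genes were higher, and 74 of 76 in PTU+PHE+PRO hearts against PHE+PRO hearts (median 0.89), where 24.7% were higher.

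Markers of other cell types moved with PTU as well. Summed markers of endothelial cells (6 genes, none at 0) were 1244 to 1345 CPM in PTU hearts, against 1521 to 1553 CPM in saline hearts of set B, and those of macrophages (6 genes, none at 0) were 71.5 to 77.6 CPM, against 152 to 173 CPM. Heart muscle markers summed to 19099 to 19936 CPM in PTU hearts, against 19554 to 21114 CPM in saline hearts. A sum does not show how single genes of a list moved. Markers of smooth muscle and pericytes (5 genes, none at 0) were lower. They summed to 894 to 967 CPM in PTU hearts, against 1122 to 1268 CPM in saline hearts of set B. In PTU+PHE hearts of set A they summed to 684 to 852 CPM, against 1155 to 1324 CPM in PHE hearts. Fibroblast markers (6 genes, none at 0) were higher, at 2695 to 2869 CPM in PTU hearts against 2400 to 2675 CPM in saline hearts of set B. They were lower in set A, at 1289 to 1773 CPM in PTU+PHE hearts against 1940 to 2084 CPM in PHE hearts. In set A endothelial markers summed to 949 to 1190 CPM in PTU+PHE hearts, against 1637 to 1812 CPM in PHE hearts, and granulocyte markers to 45.8 to 109 CPM, against 17.9 to 36.4 CPM. The part of these shifts in the members' values was not tested.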

How the data were processed

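Hearts were extracted with Trizol and libraries made with a TruSeq RNA kit, per the labels' protocols. The authors deposited whole-number read counts per Ensembl mouse gene, made with cutadapt 1.9, STAR 2.5.2b and featureCounts 1.5.1 on mm10, per the submitters' processing notes. The annotation release, strand setting and treatment of multimapping reads are not given in the sources used here. The deposited counts were used as they stand. Of 51826 IDs, 51633 matched a GENCODE M21 annotation of GRCm38, which gave symbols, lengths and overlaps. Promoters came from RefSeq on GRCm38.p6.

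The count test was edgeR 4.0.16 (R 4.3.3): TMM scaling, genes kept by a minimum count of 10 and a minimum total of 15, 1 quasi-likelihood fit of 9 group means over 27 libraries (18 residual degrees of freedom), and Benjamini-Hochberg adjustment over 19119 genes with a threshold of 0.05. CPM were computed with TMM library sizes and FPKM as CPM per kilobase of the longest coding transcript. A change is a difference of fitted group means on the log2 scale ± SE, and levels are given as mean ± SD. "Rose" and "fell" are used of called genes. Alternatives were DESeq2 1.42.0, its size factors in edgeR, no low-count filter, a spline of transcript length with 4 degrees of freedom as a library offset, a fit of 1 set, the replicate number as a block, and each library left out in turn. A fit without the 3 libraries of lowest long-to-short difference, and the length of the APPRIS principal transcript for levels, were added after the data were seen. The fit was tested on simulated data.

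The members and the gene lists were chosen with earlier results of these data known. Named members were the 3 with the smallest p per direction in each comparison, the 3 highest and 3 lowest levels, called members against the majority, and members with a set role, and others are named only to complete a count. The labels do not say whether hearts came from separate litters, and p-values measure the spread between these samples. No 2 libraries agreed within sampling noise (the smallest median chi-square over genes between libraries was 1.69, against 0.455 for sampling alone).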

Additional observations from a re-analysis of the deposited data

Results flagged for a closer look

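Mrps18c, one of 3 paralogs of bacterial S18 and a part of the small subunit, was singled out because the effect of PTU on it differed between the PHE background of set A and the saline background of set B. It was 0.58 higher in PTU+PHE hearts than in PHE hearts and 0.45 lower in PTU hearts than in saline hearts on the log2 scale, a difference of 1.02 ± 0.28 (SE, n = 3 hearts per group, adjusted p = 0.0423 by edgeR). The gene overlaps Gm43511, an unclassified transcript model on the same strand. The difference was not called in 10 of 12 fits that each left out 1 heart. Set and PHE cannot be told apart in this difference.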

How the results depend on the processing

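Changes of named members kept their direction in all 1676 refits and their side of the threshold in 1405, and 271 were no longer called. The changes counted were ones called in the main fit, and the refits reused its libraries, so they are not independent of it. In a fit of 1 set, 65 members were lower and 1 higher in PTU hearts, 69 lower and 1 higher in PTU+PRO hearts against saline, and 71 lower and 1 higher against PRO hearts, and 1 was lower in PTU+PRO hearts against PTU hearts. In set A that fit called 0 higher in PHE and PHE+PRO hearts, and 13 lower and 0 higher in PTU+PHE hearts against PHE hearts. The length offset gave 12 higher in PHE hearts, 1 higher in PHE+PRO hearts, 13 lower in PTU+PHE and 21 lower in PTU+PHE+PRO hearts against saline, 1 higher in PTU+PHE hearts against PHE hearts, 1 lower in the difference of PTU effects and 2 lower between saline groups. DESeq2 called 5 higher in PHE+PRO hearts, 2 higher in the difference of PTU effects and 2 lower between saline groups. Without the low-count filter 0 were higher in PTU+PHE hearts against PHE hearts and 5 between saline groups. Without the 3 libraries of lowest long-to-short difference, 17 were lower in PTU+PHE and 7 higher and 22 lower in PTU+PHE+PRO hearts against saline, 37 lower in PTU+PHE hearts against PHE hearts, 53 lower in PTU+PHE+PRO hearts against PHE+PRO hearts, 3 higher in the difference of PTU effects and 28 lower in all 4 PTU comparisons, of which 13 were among the 14. Other settings gave 10 to 18 for that count, and leave-one-out fits were not run for it. The cause of these shifts was not tested.

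With the replicate block, 11 members were higher in PHE hearts and 0 in the difference of PTU effects; PHE+PRO hearts have no full set of numbers and were left out. Hearts of the same number in 1 set did not deviate together (correlations -0.33 to 0.20, median -0.03), so the numbers were not taken as pairs.

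Leaving out 1 heart at a time gave 20 to 43 lower in PTU and 34 to 46 in PTU+PRO hearts against saline, and 30 to 39 in PTU+PRO hearts against PRO hearts. It gave 0 to 20 higher in PHE and 0 to 3 in PHE+PRO hearts against saline. It gave 5 to 27 higher and 1 to 11 lower in PTU+PHE hearts, and 4 to 24 higher and 5 to 17 lower in PTU+PHE+PRO hearts, against saline. Against PHE hearts PTU+PHE hearts had 0 to 4 higher and 11 to 40 lower, and against PHE+PRO hearts PTU+PHE+PRO hearts had 1 to 5 higher and 12 to 41 lower. PTU+PHE+PRO hearts against PTU+PHE hearts had 0 to 6 lower. The difference of PTU effects had 0 to 3 higher, and the saline groups 2 to 4 higher and 1 lower. With 3 hearts a group, single hearts set several counts, and counts of Mrpl53 are too few to place it.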
